A study of Mus musculus with 67 samples.

Results

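The genes described here are those whose mean retinal RNA level lay well above that of the reference group NB at 3d and little or not above it at 6h and 1d. Members were chosen on group means of log2(CPM + 0.5), with 0.5 added so that a count of 0 has a logarithm. CPM is the read count of a gene per mega (M) of reads in its library, where the authors scaled library size to an effective size. The 3d mean had to exceed the NB mean by at least 0.8, the 6h and 1d means could exceed it by at most 0.4, and the mean CPM at 3d had to be at least 2. Of 16930 genes in the retina table, 428 met the 3d limit and the CPM limit and 50 met all conditions. Of these 50, 6 (Mki67, Top2a, Acp5, Adgre1, Trem2 and Csf1r) were set aside by name, which left 44 members, 42 of them coding for protein. Because retinal values chose the members, their retinal levels are given below as a description without a test.

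All RNA libraries came from photosensitive mice lacking Abca4 and Rdh8 (genotype abca4-/- rdh8-/-, described as C57BL/6J), and no library of another genotype entered. Retina libraries numbered 6 in NB, 3 at 6h, 4 at 1d and 4 at 3d, and libraries of retinal pigment epithelium (RPE) numbered 5 in NB, 3 at 6h, 4 at 1d and 4 at 3d. The labels do not spell out NB, the event from which the times count, or the age of the animals. Each library pooled both eyes of 1 mouse, with cornea, iris and lens cut away first, and RPE cells were shaken off the eyecup before the choroid was discarded. Whether a retina and an RPE library came from the same mouse is not given, and retina and RPE tables were normalised separately, so levels were not tested across tissues.

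Reads were counted per gene, and each library held 9.45 to 15.2 M reads (12 retina libraries), 22.6 to 32.4 M (5 retina libraries, all of 6h and 2 of NB), 11.5 to 14.4 M (12 RPE libraries) or 23.1 to 26.8 M (4 RPE libraries, all of 6h and 1 of NB). NB libraries are named A for the deeper and B for the shallower sets here. All 6h libraries were in the deeper sets and all 1d and 3d libraries in the shallower ones, so depth and time cannot be told apart between 6h and the later groups. Rod genes in retina and RPE genes in RPE were abundant in every library, as labelled. RPE libraries also held rod, lens and surface epithelium RNA. Their surface epithelium genes summed to 17878 to 51498 CPM in NB, 25030 to 39628 at 6h, 30612 to 62450 at 1d and 13503 to 35550 at 3d. Their RPE genes summed to 17637 to 29468, 11780 to 17075, 11954 to 15321 and 19523 to 34858 CPM. Retina libraries also held lens RNA, with sums up to 15480 CPM at 3d. In RPE, NB library B4 and 6h library 2 stood apart in oligodendrocyte genes of the optic nerve (1454 and 1162 CPM in sum).

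Microglia are the resident phagocytes of the retina. They sense neurons through the fractalkine receptor and purine receptors, bind antibody-coated and dying material through Fc and lipid receptors, and digest it in lysosomes rich in cathepsins. Muller glia span the retina and, with astrocytes, control its water, ions and matrix, while gamma crystallins are structural proteins of lens fibre cells.

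Of the 44 members, 40 had every 3d retina library above every NB library, a separation that 13.5% of the 16926 genes tested in retina also showed. In 37 members every 3d library lay above every other retina library, against 1.97% of all genes tested. Every 3d library lay above every 1d library in these same 37, against 9.31% of all genes tested. All 44 passed the filter on low values used for tests, 41 of them also without the 3d libraries. The contrast chose the members, so nothing is read from these counts. The 4 members whose 3d and NB libraries overlapped were the gamma crystallin genes Crygb, Crygc, Crygd and Crygf, and 3 more (Pld4, Tmem26 and Trim12a) overlapped 1d. Taken over all members, the median log2 difference from the NB mean was 1.11, 1.05, 1.00 and 0.99 in 3d libraries 1 to 4, and lay between -0.10 and 0.30 in the 6h and 1d libraries. At 6h 17 members, and at 1d 14 members, lay below the NB mean. Within the limit of 0.4, 5 members (Fxyd1, Begain, Tcaf2, Mill2 and Serpine2) had every 1d library above every NB library, and 3 (Syt15, Gpr34 and BC055402) had every 1d library below. In bulk tissue a change in the number of cells of a type and a change in RNA per cell cannot be told apart.

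**Figure D1:**
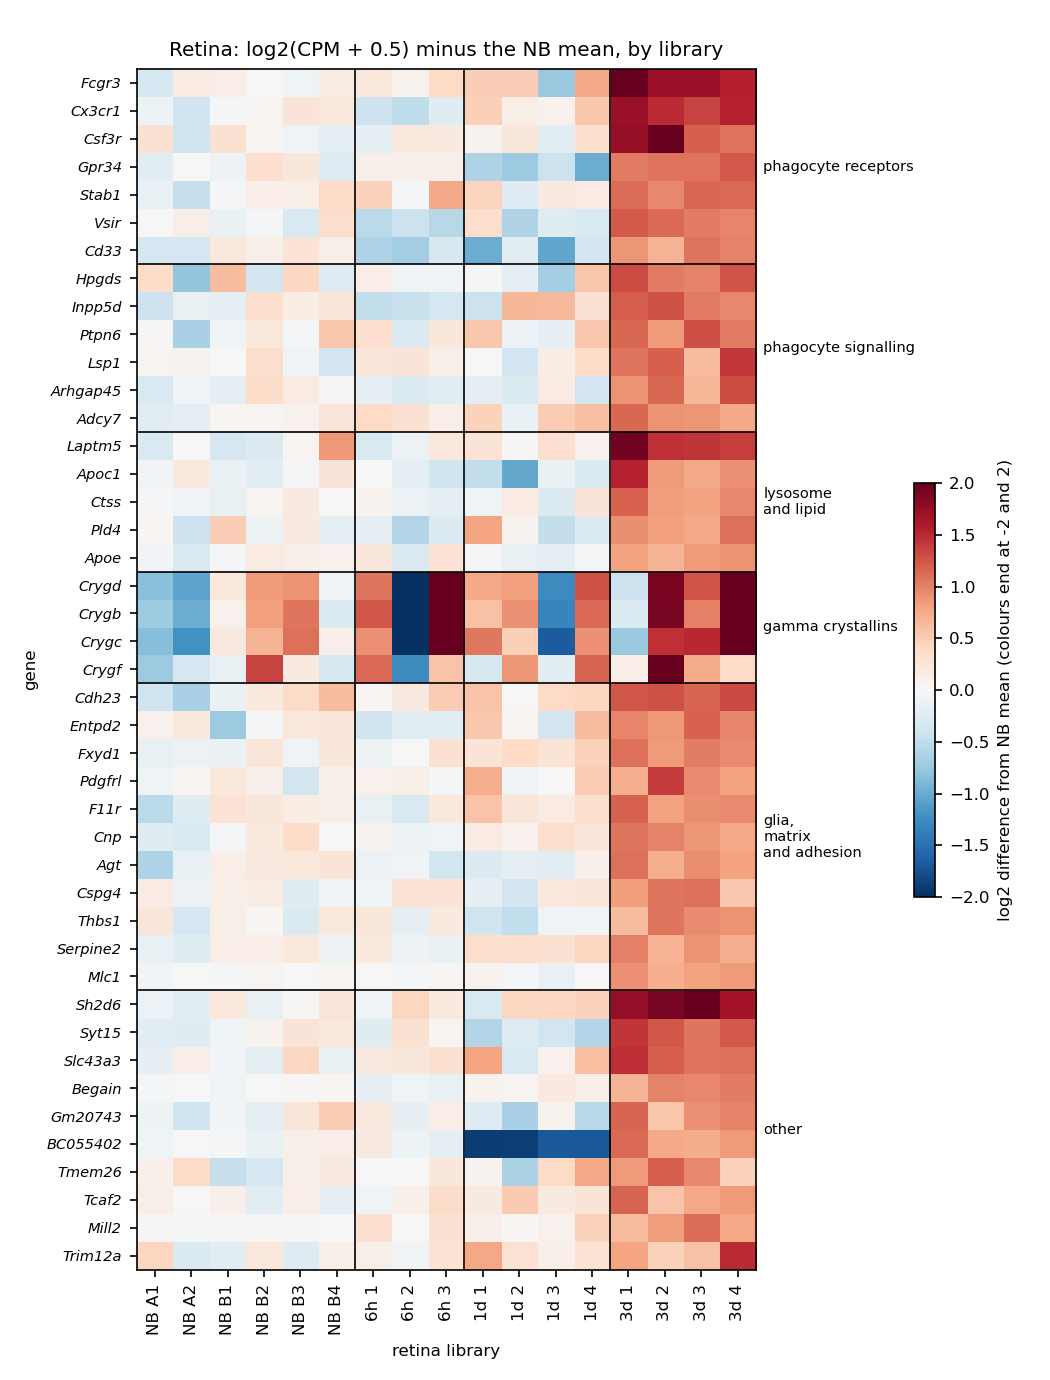
Colour map of 43 of the 44 genes (rows, grouped by role) in the 17 retina libraries (columns), as log2(CPM + 0.5) minus the NB mean of the gene. The 3d columns are red in the rows other than the gamma crystallins, whose rows vary within every group, and BC055402 is dark blue at 1d.

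Surface receptors of phagocytes made up 7 members, and each had every 3d library above every other library. Cx3cr1, the fractalkine receptor of microglia, had 3.29 CPM in the lowest, 4.50 at the median and 5.46 in the highest of 6 NB libraries. It had 3.23, 2.98 and 3.71 CPM in the 6h libraries, 6.43, 4.86, 4.80 and 6.70 at 1d, and 15.9, 13.5, 12.2 and 14.0 at 3d. The 3d libraries thus stood clear of the highest other library, a 1d library, and the 3d mean was 3.07 times the NB mean (log2 difference 1.53).

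Fcgr3, a low-affinity receptor for IgG, had 0.607, 0.989 and 1.096 CPM as lowest, median and highest NB value. Its 6h libraries had 1.14, 0.992 and 1.38 CPM, its 1d libraries 1.49, 1.49, 0.349 and 1.90, and its 3d libraries 5.34, 4.15, 4.22 and 3.66. One 1d library was the lowest of all, and the 3d minus NB difference was 1.76 on the log2 scale. Gpr34, a receptor for lysophosphatidylserine that marks microglia, had 0.749, 0.939 and 1.38 CPM as lowest, median and highest NB value, 1.09, 1.1202 and 1.096 at 6h, 0.466, 0.397, 0.611 and 0.248 at 1d and 2.57, 2.65, 2.65 and 2.97 at 3d. All 4 1d libraries of Gpr34 lay below all NB libraries, so that the 1d mean was the low point (log2 difference -0.69) and the 3d mean the high point (1.11) of its course. In 1d libraries 1 to 4, 1 read made 0.0932, 0.0992, 0.0872 and 0.0828 CPM. The 1d values of Gpr34 and the lowest of Fcgr3 thus rested on few reads.

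Csf3r, the granulocyte colony-stimulating factor receptor of neutrophils and their precursors, had NB values from 0.398 to 0.971 CPM and 3d values of 3.47, 4.37, 2.22 and 2.00. Libraries 1 and 2 at 3d were thus higher than libraries 3 and 4, and all 4 lay above the highest value at 6h or 1d, 0.993. It was the only 1 of 14 listed monocyte and neutrophil genes in the retina table, and the others were not analysed there. Red blood cell genes, which mark blood in the tissue, were higher at 3d in 4 of 4 tested and at 1d in 3, with sums of 7.99 to 15.5 CPM in NB, 9.25 to 12.4 at 6h, 12.3 to 35.1 at 1d and 19.5 to 24.9 at 3d. Their part in the level of Csf3r was not tested.

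Stab1, a scavenger receptor of perivascular macrophages and some endothelium, had 15.2, 13.6, 15.5 and 15.3 CPM at 3d against 4.75 to 8.88 in NB and 6.56 to 11.7 at 6h. Its 6h mean lay 0.40 above NB on the log2 scale, just inside the limit. Vsir, an inhibitory immune checkpoint receptor, and Cd33, a receptor for sialic acid, had 3d minus NB differences of 1.09 and 0.91, and both were lower than NB at 6h (log2 -0.51 and -0.54). Cd33 also had -0.66 at 1d.

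**Figure D2:**
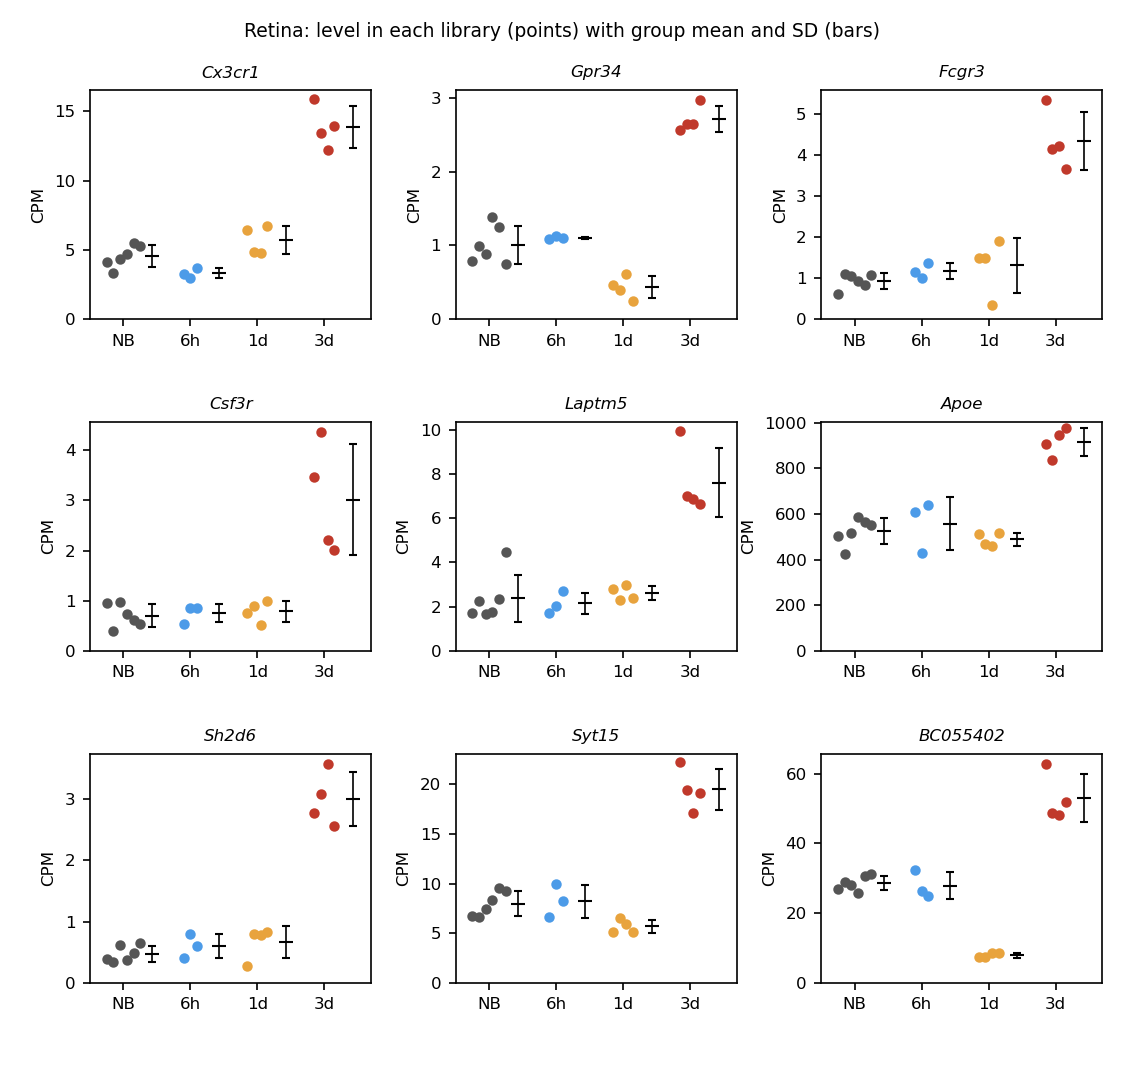
CPM in every retina library (points, linear axes from 0) by group for 9 genes, with the group mean and SD beside the points. The 4 values at 3d lie above all others in each panel, and Gpr34 and BC055402 have their lowest values at 1d.

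Signalling proteins of blood-derived and phagocytic cells made up 6 members. Inpp5d and Ptpn6 code for the phosphatases SHIP1 and SHP-1, which restrain signals from immune receptors. Inpp5d had 1.71 to 3.21 CPM in NB, 1.59, 1.66 and 1.80 at 6h, 1.68, 4.17, 4.10 and 3.15 at 1d and 6.32, 6.59, 5.58 and 5.25 at 3d. Its 6h libraries lay low in or below the NB range and its 3d libraries above all others. Ptpn6 had 0.730 to 2.35 CPM in NB and 3.82, 3.01, 4.22 and 3.45 at 3d, with 1.09 to 2.33 at the times between. Hpgds, the haematopoietic prostaglandin D synthase, Lsp1, an actin-binding protein of leukocytes, Arhgap45, a GTPase-activating protein, and Adcy7, an adenylate cyclase, had 3d minus NB differences of 1.15, 1.07, 1.00 and 0.92. Adcy7 had a 1d difference of 0.36, near the limit.

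Promoter windows from RefSeq (build GRCm38.p6, 250 bases before to 50 after a gene's start, 300 in all) were matched by symbol for 37 of 44 members. Among those with no entry were Slc43a3, Gpr34, Lsp1, Apoc1, Pdgfrl and Thbs1. The letters AGGAAGT, the core recognised by PU.1, the transcription factor of myeloid cells, and by other ETS factors, were searched on both strands. They were found in the windows of 7 of 37 members (18.9%) and of 10.7% of 27025 genes with a window. Of 15 members with a phagocyte, lysosome or lipid role and a window, 6 had a match (40%): Hpgds, Inpp5d, Ptpn6, Adcy7, Ctss and Pld4. Among the other 22, Trim12a alone had 1. TTCCCGC, the E2F letters, were in 2 members (5.41%, against 5.29% of all genes), and TTTGAA, the CHR element of mitotic genes, in 6 (16.2%, against 20.2%). The stretches of 60 bases around AGGAAGT or its reverse complement ahead of the start are shown for the 4 signalling genes that had a match there, 5′ to 3′ on the strand of the gene, with the matched letters in capitals.
Hpgds, minus strand, chr6:65144746-65144805: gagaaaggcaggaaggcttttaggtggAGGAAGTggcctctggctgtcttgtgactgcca
Inpp5d, plus strand, chr1:87620252-87620311: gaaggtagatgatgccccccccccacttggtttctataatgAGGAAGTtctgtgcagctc
Ptpn6, minus strand, chr6:124738867-124738926: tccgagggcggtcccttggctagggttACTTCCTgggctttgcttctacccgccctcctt
Adcy7, plus strand, chr8:88288993-88289052: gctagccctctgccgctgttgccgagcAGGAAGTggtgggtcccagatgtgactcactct
The match began 48, 19, 190 and 46 bases before the start of Hpgds, Inpp5d, Ptpn6 and the second of 3 windows of Adcy7. A match of letters describes the window and shows no binding.

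Lysosomal and lipid genes made up 6 members. Laptm5, a lysosomal membrane protein of haematopoietic cells, had 9.93, 7.02, 6.86 and 6.63 CPM at 3d. In NB its values ran from 1.68 to 4.49, where NB library B4 stood above the next highest, 2.35.

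Ctss, the cathepsin that processes antigen for MHC class II, had 21.2, 16.7, 16.2 and 18.3 CPM at 3d against 8.21 to 10.4 in NB and 7.33 to 11.01 at 6h and 1d. Pld4, a lysosomal exonuclease of nucleic acids, had 2.22, 2.01, 1.93 and 2.56 CPM at 3d and 0.564 to 1.50 in NB, and its 3d libraries overlapped 1 library of 1d, at 1.96. Apoe, the apolipoprotein of glial and RPE lipid transport, had 425 to 584 CPM in NB, 426 to 637 at 6h, 461 to 515 at 1d, and 907, 835, 944 and 974 at 3d. Its 3d minus NB difference of 0.81 was the smallest of the 44 and lay just inside the limit. Apoc1, an apolipoprotein gene next to Apoe on chromosome 7, had 3.05, 1.72, 1.57 and 1.80 CPM at 3d, with library 1 apart from the others, and 0.0992 to 0.611 at 1d against 0.551 to 0.963 in NB.

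Other genes of the lists that these members belong to were counted with limma (two-sided, Benjamini-Hochberg adjustment over all genes tested, threshold 0.05) beside the shares of all genes tested, which were 19.3% higher at 3d, 24% higher and 27.5% lower at 1d, and 16.9% higher and 18.5% lower at 6h. Of 8 other resting microglia genes tested, 2 were higher and 0 lower at 3d, and 0 were higher and 5 lower at 1d. The 2 were Fcrls, an Fc receptor-like gene of microglia (log2 fold change 1.39 ± 0.23 SE, adjusted p = 7.25e-05), and Selplg, the selectin ligand (0.53 ± 0.18, adjusted p = 0.0230). P2ry12, the purine receptor of resting microglia, had 0.21 ± 0.18 at 3d (adjusted p = 0.344) and -1.47 ± 0.18 at 1d (adjusted p = 9.64e-07). Tmem119 had 0.32 ± 0.21 at 3d (adjusted p = 0.236) and -0.69 ± 0.21 at 1d (adjusted p = 0.0109). Cx3cr1 and Gpr34, which are on that list, lay above NB at 3d by 1.53 and 1.11.

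Of 13 other Fc receptor and ITAM signalling genes tested, 13 were higher at 3d, 12 at 1d and 2 at 6h, with none lower. Fcer1g, the signalling chain of Fc receptors, had 1.47 ± 0.17 at 3d (adjusted p = 1.90e-06) and 0.62 ± 0.17 at 1d (adjusted p = 0.00490), whereas the members Fcgr3, Inpp5d and Ptpn6 had 0.25, 0.29 and 0.20 at 1d. Members could not exceed 0.4 at 1d, so this contrast follows from how they were chosen. Of 6 other class II antigen presentation genes, 5 were higher at 3d and 1 at 1d, and of 26 other lysosomal genes 16 were higher and 1 lower at 3d. At 1d 14 of these lysosomal genes were higher and 2 lower. Of 25 other phagocyte core genes, 23 were higher and 1 lower at 3d, and 19 were higher and 2 lower at 1d. On the list of perivascular macrophage genes, which holds Stab1, 3 others were tested, with 0 higher and 0 lower at 3d. Of 18 other genes on the list of lipid-laden phagocytes, which holds Apoe, 16 were higher at 3d, 16 at 1d and 9 at 6h, with 0 lower. Of 14 other lipid uptake and efflux genes, 7 were higher and 2 lower at 3d, and 6 and 4 at 1d.

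Summed over the 28 phagocyte core genes in the table, 3 of which are members, the level ran from 106 to 134 CPM in NB, 122 to 130.0 at 6h, 117 to 147 at 1d and 185 to 226 at 3d. For the 11 resting microglia genes the sums were 42.2 to 52.6, 33.3 to 48.2, 38.2 to 72.2 and 96.1 to 109 CPM. No listed gene of either set was at 0 throughout a group. The part of these markers in the members' levels was not tested.

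Genes of glia, matrix and cell adhesion made up 11 members, each with every 3d library above every other. Mlc1, a membrane protein of astrocytes and Muller glia, had 88.8 to 95.3 CPM in NB, 91.4, 90.9 and 94.6 at 6h, 96.3, 90.3, 82.5 and 91.1 at 1d, and 174, 152, 161 and 166 at 3d. Its level stayed within a narrow range until 1d. Agt, angiotensinogen, had 4.75 to 9.10 CPM in NB, 5.76 to 8.19 at 6h and 1d, and 16.9, 12.9, 14.9 and 13.5 at 3d. Entpd2, an enzyme that cleaves extracellular ATP, and Fxyd1, a regulator of the sodium pump, had log2 differences of 1.00 and 0.98.

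Cnp, a phosphodiesterase of myelin, had 36.9, 34.9, 32.3 and 29.6 CPM at 3d and 13.9 to 22.5 in NB. Its list of optic nerve oligodendrocyte genes had 3 of 6 genes in the retina table, with sums of 52.6 to 65.2 CPM in NB and 67.4 to 73.9 at 3d. Cspg4, the NG2 proteoglycan of pericytes and glial precursors, Serpine2, an inhibitor of thrombin and plasminogen activators, Pdgfrl, a receptor-like protein, and F11r, the junctional adhesion molecule A, had log2 differences of 0.88, 0.83, 0.97 and 0.96. Thbs1, thrombospondin 1, a matrix glycoprotein that restrains vessel growth, had 15.3, 20.5 and 23.1 CPM as lowest, median and highest NB value and 30.0, 41.3, 37.5 and 36.4 at 3d, with 13.7 to 22.7 between.

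Other cell types were measured in the same retina libraries by lists that hold none of these members. Of 10 Muller glia genes, 7 were higher and 0 lower at 3d, and 3 were higher and 4 lower at 1d, with sums of 5181 to 5952 CPM in NB, 3704 to 4342 at 1d and 6828 to 7429 at 3d. All 12 reactive glia genes were higher at 6h, 1d and 3d, with sums of 452 to 601 CPM in NB, 1501 to 1889 at 6h, 2868 to 3826 at 1d and 1449 to 1798 at 3d. Of 12 endothelial genes 9 were higher and 0 lower at 3d, and of 11 fibroblast and pericyte genes 6 and 0, with sums of 404 to 430.0 and 140.2 to 179 CPM in NB and 665 to 764 and 213 to 250.2 at 3d. At 1d 7 endothelial and 5 fibroblast and pericyte genes were higher and 0 lower. Their 1d sums were 617 to 663 and 172 to 225 CPM. Of 18 matrix genes other than Thbs1, 8 were higher and 0 lower at 3d, and 4 and 0 at 1d. The part of these cell types in the members' levels was not tested.

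Cdh23, a cadherin of sensory hair cells and photoreceptors, had 6.04, 6.23, 5.72 and 6.42 CPM at 3d and 1.26 to 3.75 in NB. Vsir, described above, lies within Cdh23 on the opposite strand of chromosome 10. Whether reads were counted by strand is not given in the sources used here, so the levels of this pair may share reads.

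Of the remaining 10 members, Sh2d6, which codes for a protein with an SH2 domain, had the highest log2 difference of all members, 1.85. It had 0.332, 0.438 and 0.642 CPM as lowest, median and highest NB value, 0.409, 0.8001 and 0.601 at 6h, 0.280, 0.794, 0.785 and 0.828 at 1d, and 2.78, 3.08, 3.57 and 2.56 at 3d. Its lowest 1d library stood apart from the other 3, and its 3d values came from 37 to 50 reads. In that 1d library 1 read made 0.0932 CPM, so its value rested on few reads. Syt15, a synaptotagmin, had 6.64 to 9.54 CPM in NB, 5.13, 6.55, 5.93 and 5.13 at 1d, and 22.2, 19.5, 17.2 and 19.1 at 3d.

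BC055402, a long noncoding RNA gene, had the widest course. It had 25.9, 28.4 and 31.4 CPM as lowest, median and highest NB value, 32.3, 26.4 and 24.9 at 6h, 7.27, 7.34, 8.55 and 8.44 at 1d, and 62.9, 48.6, 48.2 and 51.9 at 3d. The 1d libraries lay below all others (log2 difference -1.79) and the 3d libraries above all others (0.87). The 10 rod photoreceptor genes summed to 61754 to 69289 CPM in NB, 36644 to 44734 at 6h, 19252 to 33463 at 1d and 32471 to 37747 at 3d.

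Begain, a protein of synapses, had 57.2 to 61.5 CPM in NB, 53.2 to 55.9 at 6h, 61.8 to 68.3 at 1d and 95.4, 119, 117 and 122 at 3d. Slc43a3, a nucleobase transporter, Gm20743, a noncoding RNA gene, Tmem26, Tcaf2, a regulator of TRP channels, and Mill2, a class I-like gene, had log2 differences of 1.22, 0.90, 0.87, 0.84 and 0.84. Trim12a, of the tripartite motif family, had 7.36, 5.73, 6.29 and 12.3 CPM at 3d. Its 1d values reached 7.27, so that the groups overlapped, and library 4 at 3d stood highest.

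The gamma crystallin genes varied between libraries of 1 group instead. Crygd, Crygc and Crygb are neighbours on the minus strand of chromosome 1, between 65061838 and 65082290, and Crygf lies on its plus strand, at 65926522 to 65928311. The 100 bases ahead of each start are shown because the 4 promoters share the letters CTATATA (capitals) at nearly the same distance from the start, 30 to 33 bases before it. These letters were chosen after the sequences were seen. They were found on either strand in this stretch in 4 of 37 members and in 0.955% of all genes with a window.
Crygb, minus strand, chr1:65082291-65082390: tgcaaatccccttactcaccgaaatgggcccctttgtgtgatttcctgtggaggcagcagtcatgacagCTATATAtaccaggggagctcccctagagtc
Crygc, minus strand, chr1:65073533-65073632: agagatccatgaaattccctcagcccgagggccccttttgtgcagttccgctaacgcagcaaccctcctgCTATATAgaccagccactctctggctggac
Crygd, minus strand, chr1:65063441-65063540: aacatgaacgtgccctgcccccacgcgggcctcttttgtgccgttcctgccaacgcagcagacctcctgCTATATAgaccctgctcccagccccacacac
Crygf, plus strand, chr1:65926422-65926521: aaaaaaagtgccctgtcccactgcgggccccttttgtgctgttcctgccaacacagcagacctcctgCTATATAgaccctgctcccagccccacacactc
Crygd and Crygf shared an unbroken run of 45 bases here, and the other pairs runs of 8 to 18. Genes this alike may also share reads, so the split of reads among them is uncertain.

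Crygd had 9.69, 21.7 and 38.9 CPM as lowest, median and highest NB value, 43.7, 3.07 and 85.5 at 6h, 35.05, 36.7, 8.20 and 50.7 at 1d, and 15.4, 77.1, 50.04 and 107 at 3d. Library 1 at 3d lay below the NB median while 1 library at 6h lay above 3 of the 4 libraries at 3d, so the groups overlapped throughout. Crygb and Crygc were low and high in the same libraries, with 18.5 and 14.4 CPM in 3d library 1 and 108 and 133 in library 4. Crygf had 3.12, 19.2, 5.004 and 3.799 CPM at 3d and 1.50 to 7.90 in NB, so that library 2 alone carried its 3d mean.

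Lens markers also differed between libraries of 1 group. Cryaa, the alpha crystallin of lens, had 94.7 to 4159 CPM in NB, 184 to 7218 at 6h, 49.7 to 6088 at 1d, and 258, 464, 4958 and 7767 at 3d. Summed over 9 lens genes, of which none was higher or lower at any time, the level ran from 230 to 8118 CPM in NB and from 614 to 15480 at 3d. Library 2 at 3d had a low Cryaa level with the highest level of Crygf among the 3d libraries. Crygb, Crygc, Crygd and Crygf were no longer members with 6h library 2, their lowest retina library, left out. Leaving out NB library B3 or 1d library 3 also removed them all, and some other libraries removed part of them. The part of lens RNA in the dissected tissue was not tested.

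**Figure D3:**
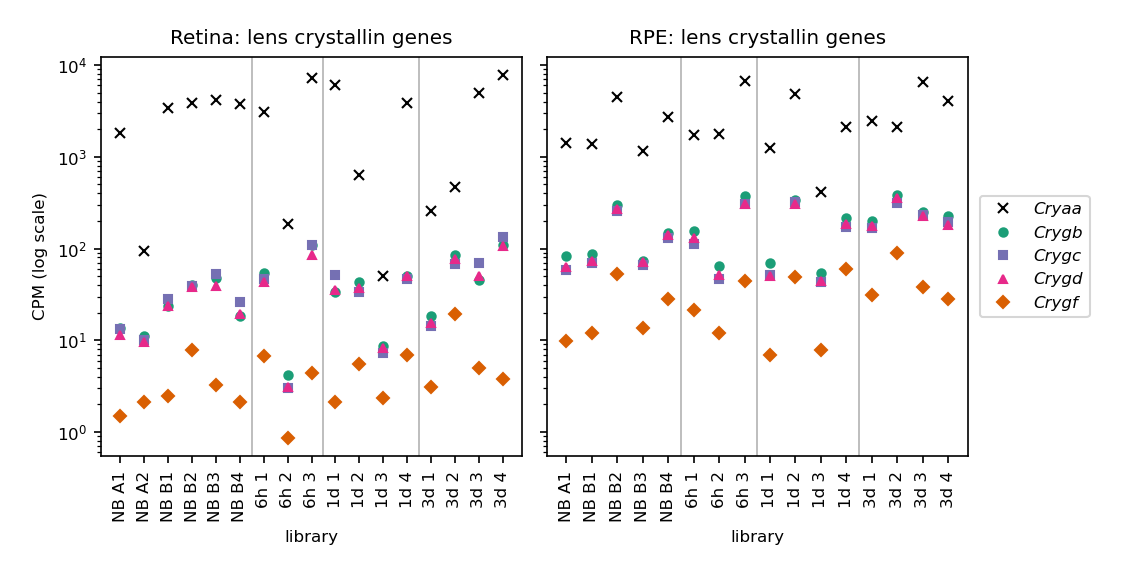
CPM (log scale) of Crygb, Crygc, Crygd, Crygf and the lens marker Cryaa in each retina (left) and RPE (right) library, with grey lines between groups. Crygb, Crygc and Crygd move together between libraries of 1 group, and Cryaa is lowest in retina library 3 at 1d, at 49.7 CPM.

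The RPE libraries, which the choice of members did not use, held 38 of the 44 genes. Sh2d6, Csf3r, Syt15, Gpr34, Gm20743 and Tmem26 were not analysed there. Against NB at 3d, 0 of the 38 passed the limma test in either direction, where 0.162% of 16712 genes tested were higher and 0.018% lower. At an unadjusted p under 0.05 there were 11 of 38 (28.9%), against 9.93% of all genes tested, and edgeR and DESeq2 called 0 in either direction. The median log2 fold change of the 38 was 0.19, against 0.00 over all genes tested, and 28 of 38 lay above 0.

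By role, the median log2 fold change at 3d against NB was 0.64 for 5 phagocyte receptors, 0.06 for 6 signalling genes, 0.05 for 6 lysosomal and lipid genes, 0.24 for 11 genes of glia, matrix and adhesion and 1.11 for 4 gamma crystallins. Cx3cr1 had 1.76, 2.33, 1.88, 2.25 and 4.91 CPM in the NB libraries of RPE and 6.09, 5.93, 4.17 and 3.57 at 3d, where 1 NB library, B4, fell inside the 3d range. Its log2 fold change was 0.85 ± 0.25 SE (adjusted p = 0.292). Apoe had 2140 to 3240 CPM in NB and 2433, 4041, 2529 and 3184 at 3d (0.07 ± 0.22, adjusted p = 0.935). The difference between the responses of the tissues was not tested.

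The gamma crystallins had log2 fold changes between 1.09 and 1.18 in RPE at 3d, with adjusted p from 0.533 to 0.574 and SEs from 0.58 to 0.66. Crygd had 62.7, 73.1, 273, 70.8 and 142 CPM in NB and 178, 351, 224 and 180.4 at 3d, which overlapped. Lens genes summed to 2498 to 9186 CPM in NB and 4695 to 13476 at 3d. Begain, Mlc1 and BC055402 had 1.096 ± 0.32, 0.78 ± 0.27 and 0.96 ± 0.39 (adjusted p = 0.287, 0.374 and 0.443). Rod genes, which mark retinal RNA in RPE libraries, summed there to 3840 to 6236 CPM in NB and 4599 to 8090 at 3d, and their part in these values was not tested.

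At 1d against NB in RPE, 0 members were higher and 2 lower, where 1.77% of all genes were higher and 3.84% lower. An unadjusted p under 0.05 was found there for 8 of 38 members (21.1%) and 21.6% of all genes. DESeq2 called 1 member higher and 4 lower, and edgeR 0 and 2. The 2 genes code for secreted proteins. Thbs1 had 552, 379, 366, 216 and 283 CPM in NB and 128, 162, 104 and 129 at 1d, with no overlap (-1.40 ± 0.24, adjusted p = 0.00219). In the authors' deposited table, with its p-values adjusted here, it was the only member called at 1d, where 1.29% of all genes were called, and no member was called at 3d (0.0778% of all genes) or 6h (0.0538%). Serpine2 had 48.1, 56.2, 41.0, 28.5 and 47.1 CPM in NB and 23.0, 24.8, 32.3 and 15.8 at 1d, where 1 NB library fell inside the 1d range (-0.88 ± 0.19, adjusted p = 0.0125). At 6h 0 were higher and 0 lower, beside 0.808% and 0.652% of all genes, with 7 of 38 members (18.4%) and 18.2% of all genes at an unadjusted p under 0.05. edgeR also called 0 members in either direction at 6h, and DESeq2 called 3 higher and 3 lower.

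At 3d against 1d in RPE, 5 of 38 members were higher and 0 lower, where 4.92% of all genes were higher and 1.66% lower. At an unadjusted p under 0.05 there were 18 of 38 members (47.4%), against 28.6% of all genes. DESeq2 called 8 members higher and 1 lower, and edgeR 3 and 0. Thbs1 had 458, 886, 520.1 and 535 CPM at 3d, above all 1d libraries and, in library 2, above all others (2.16 ± 0.25, adjusted p = 0.000394). Cdh23 had 1.50, 0.364, 0.540 and 1.11 CPM at 1d and 3.16, 2.78, 1.48 and 2.08 at 3d (1.102 ± 0.30, adjusted p = 0.0418), with an overlap of 1 library. Vsir, which may share reads with it, had 0.55 ± 0.19 (adjusted p = 0.0801). Fcgr3 had 1.66, 1.55, 1.70 and 1.43 CPM at 1d and 7.79, 3.81, 2.35 and 2.97 at 3d (1.06 ± 0.28, adjusted p = 0.0348).

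Both Stab1 and Agt had every 3d library above every 1d library. Stab1 had 6.71, 9.01, 8.34 and 5.79 CPM at 1d and 16.7, 24.6, 12.8 and 11.8 at 3d (1.05 ± 0.25, adjusted p = 0.0201). Agt had 1.58, 1.82, 0.849 and 1.51 CPM at 1d and 3.39, 3.37, 2.69 and 2.90 at 3d (0.91 ± 0.26, adjusted p = 0.0487). The NB level of each of these 5 genes lay between the means at 1d and 3d. Apoc1 missed the threshold with a difference in the other direction, from 3.79, 2.82, 4.94 and 3.97 CPM at 1d to 1.47, 1.099, 2.87 and 2.75 at 3d (-0.83 ± 0.24, adjusted p = 0.0503).

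**Figure D4:**
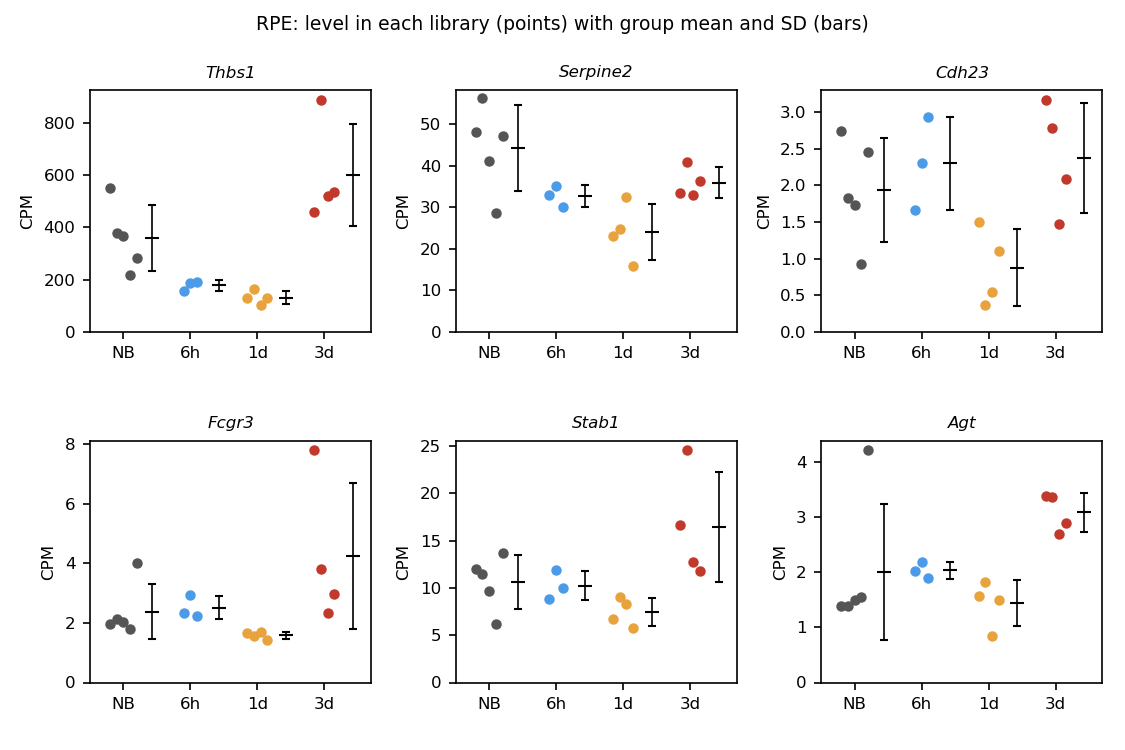
CPM in every RPE library (points, linear axes from 0) by group, with the group mean and SD, for the 5 genes called at 3d against 1d and for Serpine2. The group mean at 1d is the lowest in each panel, and the NB library B4 is apart from the other NB libraries for Fcgr3 and Agt.

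The count of 5 rested on single libraries. It was 2, 3 and 1 without 1d library 2, 3 or 4, and 3 and 1 without 3d library 1 or 2. Thbs1 was called in each of these fits. Stab1 was not called without 1d library 4 (adjusted p = 0.0700) or 3d library 2 (adjusted p = 0.0770), while Agt was not called in any fit that left out a library, with adjusted p from 0.0577 to 0.142. Cdh23 was not called without 1d library 2, 3 or 4 or 3d library 1, 2 or 4 (adjusted p from 0.0675 to 0.134), and Fcgr3 not without any library at 1d or 3d library 1 or 2 (adjusted p from 0.0527 to 0.0958).

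Markers of tissue and other cell types were measured in the same libraries. Of 15 RPE genes, 6 were higher at 3d than at 1d, with sums of 11954 to 15321 CPM at 1d and 19523 to 34858 at 3d. Surface epithelium keratins, which mark cornea and conjunctiva, summed to 30612 to 62450 CPM at 1d and 13503 to 35550 at 3d, with 0 of 9 genes called. Of 29 phagocyte core genes, 4 were higher and 0 lower at 3d than at 1d, among them the member Fcgr3. Without the members on that list, 3 of 26 were higher and 0 lower. The sums over the 29 genes overlapped, with 256 to 339 CPM at 1d and 239 to 375 at 3d. The part of tissue composition in these differences was not tested.

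**Figure D5:**
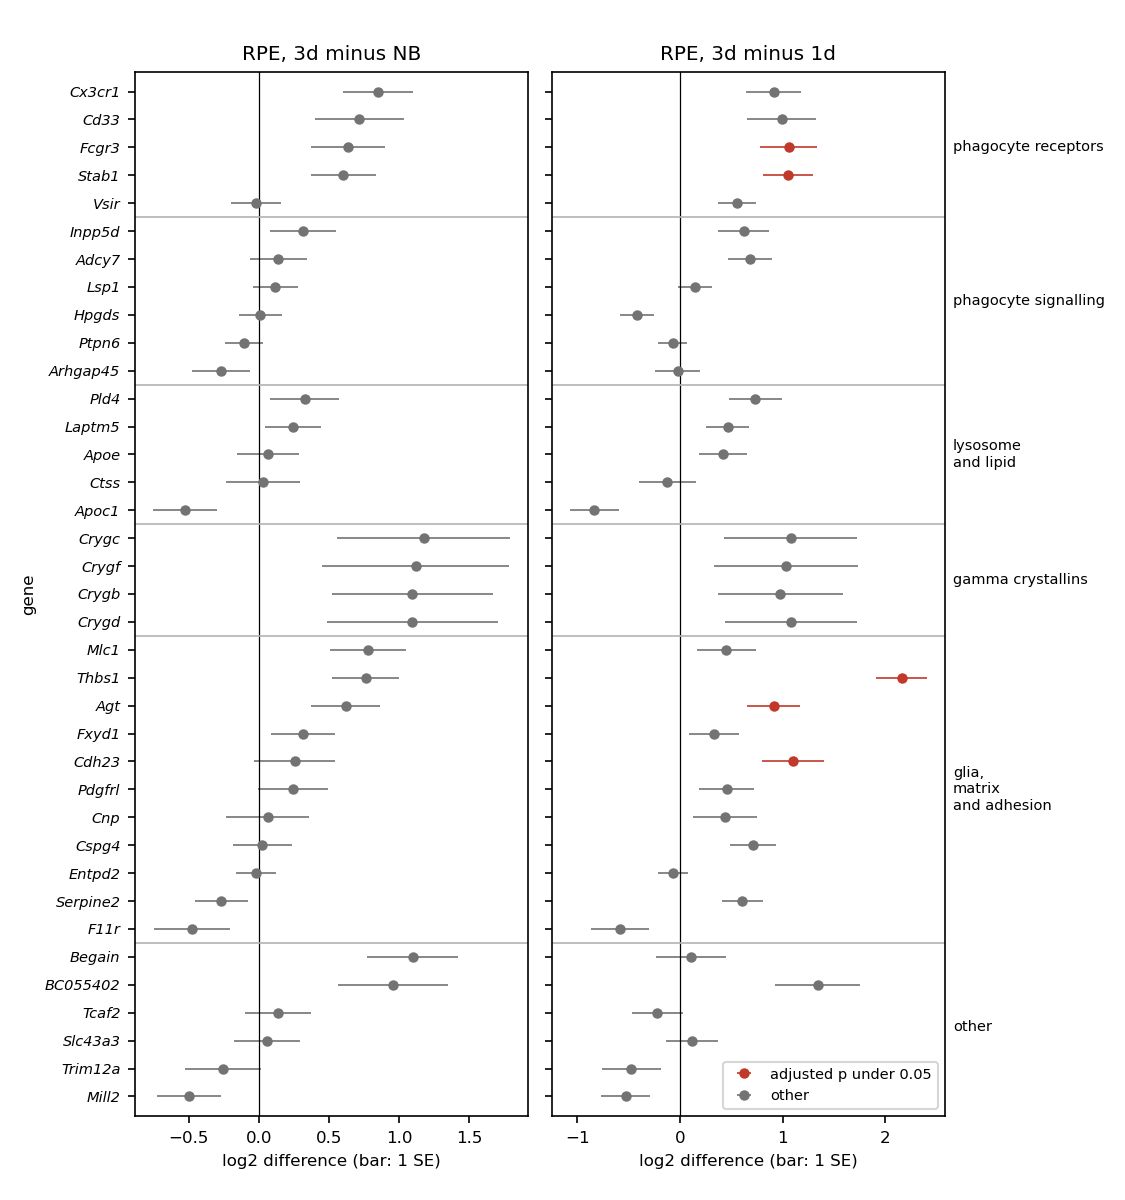
Log2 fold change with 1 SE in RPE for 37 of the 38 genes, at 3d against NB (left) and 3d against 1d (right), grouped by role, with genes at an adjusted p under 0.05 in red. No gene is red on the left, and Thbs1, Cdh23, Fcgr3, Stab1 and Agt are red on the right.

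The limits used to choose members cut through a continuum. Just outside the 3d limit of 0.8 lay Gm20559 and Gm8995, with 0.7955 and 0.7945, and just inside lay Apoe and Mlc1, with 0.81 and 0.82. Just outside the limit at 6h lay Ctsk, cathepsin K, with 0.52, and just inside lay Crygb and Stab1, each with 0.40. Just outside the limit at 1d lay Gusb, a lysosomal glucuronidase, and Rflnb, with 0.41 and 0.42, and just inside lay Crygd and Crygf, with 0.39 and 0.38. When each retina library was left out in turn, 21 members were kept in all 17 settings, among them Laptm5, Cx3cr1, Csf3r, Syt15, Gpr34, Vsir, Ctss, Begain and Thbs1. The number chosen was 63 without 3d library 1, against 44. With the 4 NB libraries of the same depth as the 1d and 3d libraries alone, 33 of the 44 remained, and the gamma crystallins did not.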

How the data were processed

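The deposited tables hold CPM per gene that the authors scaled to effective library size, a depth-normalised signal, for retina and RPE separately. They also hold the authors' log2 fold changes and p-values, and of these only the p-values were used, adjusted here. Trimmomatic, STAR and edgeR with build GRCm38 are named per the submitters' processing notes, and libraries were TruSeq stranded mRNA per the labels' protocols. Versions, the read counter and its strand setting are not given in the sources used here. NB columns carry no sample name and were matched to the group only.

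Members, roles and lists were chosen with earlier results of these data known, and the named genes are 22 members and 6 others taken by size and by nearness to a limit, while further members were named after their values were seen. Members were found on group means of log2(CPM + 0.5). Tests used limma 3.58.1 (R 4.3.3, with trend) on the same scale over all groups of a tissue, two-sided, for genes that reached a CPM of 1 in 3 or more libraries (16926 retinal genes and 16712 of RPE), with Benjamini-Hochberg adjustment at 0.05. Fold changes on this scale understate those of low genes. Values within 0.01 of a whole read made up 100% of the tables, so reads were recovered as whole counts for edgeR 4.0.16 and DESeq2 1.42.0. Gene names were found for all but 6 retina and 7 RPE identifiers. The scripts were tested on simulated data. Each library is 1 mouse, so p-values measure the spread between mice processed as in this study. Alternatives were another pseudocount, no filter, other scaling, the 2 groups alone, other NB libraries, a replicate block and leaving out each library. ATAC libraries were not analysed here. Values of some genes are not reported here.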

Additional observations from a re-analysis of the deposited data

Results flagged for a closer look

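Only the members taken by size and by nearness to a limit were screened here, so outliers in other members are not listed. In 12 of 120 of their groups of 4 to 6 libraries, 1 library stood apart from the others by Dixon's test. Chance does this in about 1 group in 20. In retina these were Apoc1 in 3d library 1 (3.05 CPM), Laptm5 in 3d library 1 (9.93 CPM) and NB library B4 (4.49 CPM), Crygf in 3d library 2 (19.2 CPM) and NB library B2 (7.90 CPM), Sh2d6 in 1d library 1 (0.280 CPM) and Stab1 in 3d library 2 (13.6 CPM). The Stab1 library was the lowest of 4 but above all other groups. In RPE, NB library B4 stood apart for Cnp (40.4 CPM), Cx3cr1 (4.91 CPM) and Fcgr3 (3.99 CPM), 1d library 4 for Cnp (11.9 CPM), and 3d library 2 for Crygf (88.8 CPM).

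Apoc1, F11r, Mill2 and Serpine2 lay above the NB mean in all 4 retina libraries at 3d and below it in all 4 RPE libraries, where their log2 differences were -0.53, -0.48, -0.50 and -0.27. The difference between tissues was not tested, and the retinal direction was set by the choice of members.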

How the results depend on the processing

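In RPE at 3d against NB, 0 members were higher and 0 lower under each of the 19 alternatives run, DESeq2 and edgeR included. At 1d against NB, the 0 higher became 1 with DESeq2 and 0 to 1 with a library left out, and the 2 lower became 4 with DESeq2, 2 to 4 with a library left out (4 without NB library B3) and 3 with a replicate block. At 6h, the 0 higher became 3 with DESeq2 and 1 with scaling to library totals, which was added after seeing the data, and 0 with a library left out. The 0 lower there became 3 with DESeq2, 1 with the 2 groups alone, and 0 to 1 with a library left out (1 without NB library B3). At 3d against 1d, the 5 higher became 8 with DESeq2, 3 with edgeR, 2 with the 2 groups alone and 1 to 5 with a library left out, and the 0 lower became 1 with DESeq2, 1 with a pseudocount of 2, and 0 to 1 with a library left out. Over all genes at 3d against 1d, limma called 823 higher and 277 lower, edgeR on the recovered reads 734 and 248, and DESeq2 1270 and 707. The causes were not tested.

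Thbs1 was called under every alternative run for it, with log2 fold changes from 1.95 to 2.27 at 3d against 1d and from -1.56 to -1.22 at 1d against NB. Serpine2 was not called with the 2 groups alone (adjusted p = 0.0620). Agt was not called in 11 of 17 alternatives, Cdh23 and Fcgr3 in 8 each and Stab1 in 2. The 6h comparison against the deeper NB library alone leaves 1 NB library, assumed to vary like the others.

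Same-numbered RPE libraries had correlations of deviations from -0.24 to 0.40. Libraries of unlike number were not compared, so these values cannot tell whether the numbers pair the libraries. With the replicate block 5 members were higher and 0 lower at 3d against 1d, 0 and 0 at 6h, and Fcgr3 was not called (adjusted p = 0.0506).

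The number of retinal members was 11 under stricter limits of 1 and 0.2, 49 and 35 with pseudocounts of 0.1 and 2 (40 and 23 shared with the 44), 50 with scaling to library totals (29 shared), 44 with recomputed TMM factors, 41 with the shallower NB libraries and 37 to 63 with a library left out. Depth limits the low genes: Apoc1 at 3d rested on 22 to 44 reads per retina library.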
